A study of Homo sapiens with 3 samples.

Results

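The 10 genes described here encode the core of the DNA replication checkpoint and the single-stranded DNA binding complex RPA: ATM, ATR, ATRIP, CHEK1, CHEK2, CLSPN, TIMELESS, RPA1, RPA2 and RPA3. They were chosen by name, by matching the Ensembl identifiers of the counted genes to GENCODE symbols. All 10 were found, among 58051 counted genes, of which 19629 were protein-coding. RNA-seq was performed on triplicates of H9, an established human embryonic stem cell line, wild type and without treatment, from total RNA depleted of ribosomal RNA. The study used these libraries to set gene expression beside replication origins and DNA double-strand breaks (DSBs). With a single condition there was no treated group to compare, so the levels of the genes were set beside each other, beside other genes of the pathway and beside all protein-coding genes. Nothing in the labels says that the triplicates came from separate cultures, so the spread between them may be technical.

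When a replication fork stalls, the helicase runs ahead of the polymerases and leaves single-stranded DNA, which is coated by RPA, a complex of one large, one middle and one small subunit. RPA recruits the kinase ATR through its partner ATRIP, and the mediator Claspin (CLSPN), which travels with the fork together with TIMELESS, brings the effector kinase CHK1 (CHEK1) to ATR. ATM responds to DSBs and acts through the effector kinase CHK2 (CHEK2). Embryonic stem cells spend a large share of their cycle in S phase and are known for a high load of replication stress, which this pathway handles.

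The libraries held 10390984, 12024802 and 8655155 counted reads in replicates 1, 2 and 3, and 29044, 29672 and 28828 genes had at least 1 read. The 10 members together took 9373, 10824 and 7472 of these reads. Replicate 3 stood apart from the other two. The log2 ratio between 2 libraries had an SD, over 9386 protein-coding genes with at least 100 reads in all 3, of 0.12 for replicates 1 and 2, against 0.19 for 1 and 3 and 0.18 for 2 and 3. No pair agreed within sampling noise, with a chi-square per degree of freedom of 1.81, 4.18 and 3.44 for the same pairs over 16936, 16578 and 16912 genes, so the triplicates were counted as 3 libraries. Across the 9386 genes, the deviation of replicate 3 from the mean of the other replicates rose with the GC content of the transcript (Spearman's rho 0.43, where genes are not independent replicates). The rho of −0.21 and −0.39 for replicates 1 and 2 are not separate observations, since replicate 3 is part of the mean that each was compared with. The part of base composition in the values of single members was not tested.

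The cells carried the RNAs that define their label. Expression is given in TPM, the unit of the study, in which reads are divided by gene length and each library is scaled to the same sum, so that genes can be compared with each other. All 8 pluripotency markers (POU5F1, NANOG, SOX2, LIN28A, DNMT3B, TDGF1, L1TD1 and PODXL) lay between 275.1 and 2576 mean TPM. Of the markers of differentiated cells, SOX17, GATA6, TBXT, HAND1, PAX6 and SOX1 were at 2.97 TPM or below, FOXA2 at 7.54 and MIXL1 at 22.3. All annotated exons of PAX6 span 20639 bases, 7.52 times its reference (MANE Select) transcript, so its 1.74 TPM rested on the length chosen. NES, which neural progenitors and stem cell cultures share, stood at 326.8 TPM. Among fibroblast markers, DCN and LUM were near 0, at 0.099 and 0.18 TPM, while COL1A1 and COL1A2 were at 14.6 and 25.6 TPM and THY1, which human embryonic stem cells also carry on their surface, at 144.6 TPM. MKI67, TOP2A and PCNA, which mark dividing cells, stood at 137.6, 434.2 and 801.6 TPM. In RNA from a whole culture, fewer cells with a transcript and less RNA per cell cannot be told apart, which holds for every level below.

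In TPM, RPA1 and RPA2 were the most abundant of the 10, while RPA3 came sixth. RPA1 (ENSG00000132383, chr17:1829702-1900082 on GRCh38, plus strand), the large subunit that carries most of the DNA binding folds, was read at 150.2, 155.9 and 145.4 TPM in replicates 1, 2 and 3, or 150.5 ± 5.27 (SD, n = 3). RPA2 (ENSG00000117748, chr1:27891524-27914746, minus strand), the middle subunit that checkpoint kinases phosphorylate, was read at 116.3, 119.9 and 120.1 TPM, or 118.8 ± 2.12. RPA3 (ENSG00000106399, chr7:7636518-7718607, minus strand), the small subunit needed to assemble the complex, was read at 41.7, 41.5 and 42.9 TPM, or 42.1 ± 0.77. RPA1 was the highest of the members and RPA3 the lowest subunit in each of the 3 libraries, without any overlap between subunits.

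Ratios taken within a library cancel its depth. The log2 ratio of RPA2 to RPA1 was −0.37, −0.38 and −0.28 in replicates 1 to 3 (mean −0.34 ± 0.057 SD), which puts RPA1 1.27-fold above RPA2. The log2 ratio of RPA3 to RPA1 was −1.85, −1.91 and −1.76 (mean −1.84 ± 0.075), a 3.58-fold excess of RPA1, and that of RPA3 to RPA2 was −1.48, −1.53 and −1.48 (mean −1.50 ± 0.028). Each of these ratios had the same sign in 3 of 3 libraries, and each mean lay further from 0 than its SD. An exact two-sided sign-flip permutation test gave p = 0.25 for each. That is the smallest p this test can give with 3 libraries, so it could bring no ratio to 0.05. The size of the RPA3 deficit also rested on gene length: dividing by the MANE Select transcript, the single reference transcript of each gene, in place of all annotated exons brought the log2 ratio of RPA3 to RPA1 to −1.34. RPA3 remained the lowest subunit with either length. The log2 ratio of RPA2 to RPA1 was −0.20 with MANE Select lengths and −1.81 when reads were not divided by length.

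The apical kinases stood far below RPA. ATR (ENSG00000175054, chr3:142449007-142578733, minus strand), the kinase that RPA-coated DNA activates, was read at 8.22, 7.21 and 7.15 TPM (7.53 ± 0.60, n = 3), from 583, 594 and 432 reads. ATM (ENSG00000149311, chr11:108223044-108369102, plus strand), the kinase that DSBs activate, was read at 10.9, 10.1 and 9.37 TPM (10.1 ± 0.75), from 1109, 1202 and 815 reads. ATM exceeded ATR in every library, with a log2 ratio of ATR to ATM of −0.40, −0.49 and −0.39 (mean −0.43 ± 0.055, exact sign-flip permutation p = 0.25), or 1.35-fold.

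These low values depended on the lengths the annotation gives the genes. The union of all annotated exons spans 39184 bases for ATM, with 53 transcripts, and 27234 bases for ATR, with 22 transcripts, which is 3.03 and 3.34 times the length of their MANE Select transcripts. Divided by the MANE Select length, ATM was read at 18.5 ± 1.31 TPM and ATR at 15.2 ± 1.18, while RPA1 fell to 102.9 ± 3.26. Both kinases remained below RPA1, RPA2, TIMELESS, CHEK1, CHEK2, RPA3 and CLSPN on this scale too. In reads alone ATM was not scarce, at 100.6 ± 6.29 CPM against 34.5 ± 1.05 CPM for RPA3. In CPM, reads are divided by library size but not by gene length. RPA2, at 59.7 ± 1.66 CPM, was below ATM, CLSPN, CHEK1 and TIMELESS on that scale.

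**Figure D1:**
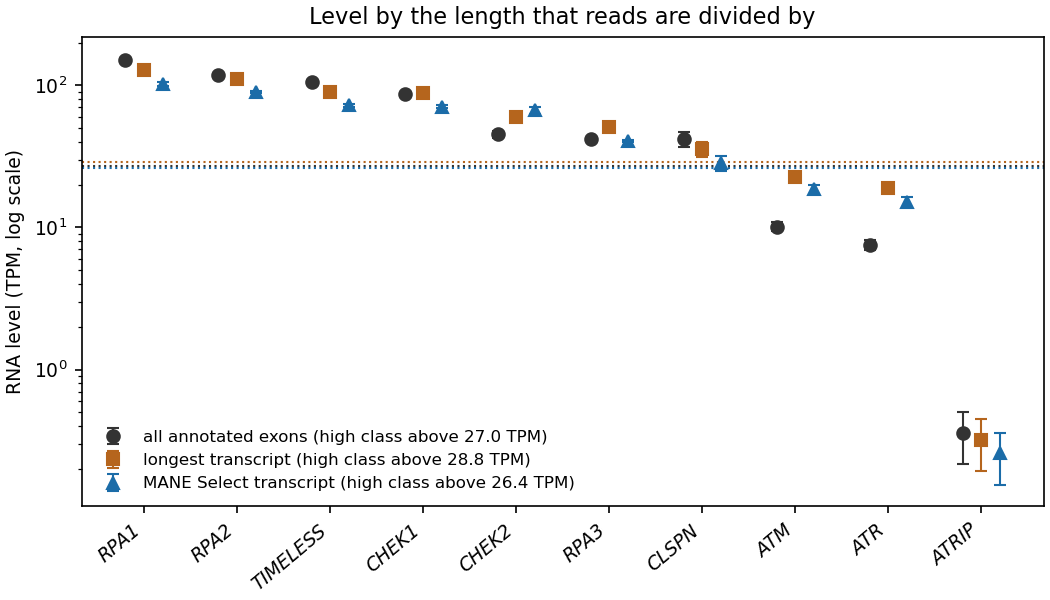
Mean TPM of the 10 genes (log axis) when reads were divided by all annotated exons (circles), by the longest transcript (squares) or by the MANE Select transcript (triangles), with SD over 3 replicates as bars and the boundary of the high class for each length as a dotted line. ATM, ATR and CHEK2 were higher with both shorter lengths, and ATM, ATR and ATRIP lay below the boundary in all 3.

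ATRIP (ENSG00000164053, chr3:48446710-48467645, plus strand), which carries ATR to RPA and without which ATR is not recruited, was hardly counted at all. It had 3, 6 and 6 reads in the triplicates, or 0.21, 0.37 and 0.50 TPM (0.36 ± 0.14, n = 3). The 15 reads in all have an exact Poisson 95% interval of 8.4 to 24.7, and such intervals cover counting error only. ATR and ATRIP did not overlap in any library, and the log2 ratio of ATR to ATRIP was 5.28, 4.30 and 3.84 (mean 4.47 ± 0.73, exact sign-flip permutation p = 0.25). From the summed reads ATR was 21.4-fold above ATRIP per base of exon, with a 95% interval of 12.9 to 38.3 for counting error at these lengths. With MANE Select or longest transcript lengths the mean log2 ratio was 5.97, a larger gap in the same direction. ATRIP thus stood apart from every other member, and its counts have to be read beside the annotation of the locus.

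The 3′ end of ATRIP is shared with another gene. TREX1, which encodes a DNA exonuclease, lies within ATRIP on the same strand, and its 1448 exon bases are all exon bases of ATRIP too, where they make up 26.7% of the total. TREX1 had 0 reads in all 3 libraries, where 3 reads taken as the limit would be 0.80, 0.68 and 0.93 TPM. As TREX1 has no exon base of its own, this limit applies only if reads in shared exons were counted for it, which is not known. Among protein-coding genes with at least 90% of their exon bases inside same-strand exons of 1 other gene, 43 of 64 (67.2%) had 0 reads, against 12.8% of 16779 genes that share none. Over 883 genes which, like ATRIP, share 10 to 50% of their exon bases in this way, 10.7% had 0 reads. ATRIP itself had 15 reads. RefSeq also lists a readthrough transcript, ATRIP-TREX1, that spans chr3:48446779-48467645 and so nearly the whole of ATRIP. Of 149 genes that come first in the name of such a readthrough locus in RefSeq, 25.5% were below 1 TPM, against 32.6% of protein-coding genes. These genes were not matched to ATRIP for how much of the gene the readthrough covers, so nothing about ATRIP is read from this share. Whether reads of ATRIP were assigned to another annotated gene, or discarded as ambiguous, was not tested, since no source used here names the counting rule or its annotation.

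Genes around ATRIP ranged from low to high. SHISA5, which ends 153 bases downstream on the opposite strand, was read at 80.7 ± 0.51 TPM, and TMA7, 2502 bases upstream, at 478.3 ± 32.7. Farther upstream, CCDC51 and PLXNB1 were at 26.9 ± 1.38 and 62.9 ± 8.25 TPM, and FBXW12, on the same strand as ATRIP and within 50 kb of it, was low at 0.61 ± 0.28. A long noncoding RNA (ENSG00000244380) that starts 54 bases from ATRIP on the opposite strand was read at 61.8 ± 8.20 TPM. It shares 48.6% of its exon bases with other genes, and TMA7 shares 53.2%. Whether their counts include reads of overlapping genes was not tested. When only the 3983 exon bases that ATRIP shares with no other gene were used as its length, its level was 0.47 ± 0.19 TPM and still in the lowest of the expressed classes described below.

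**Figure D2:**
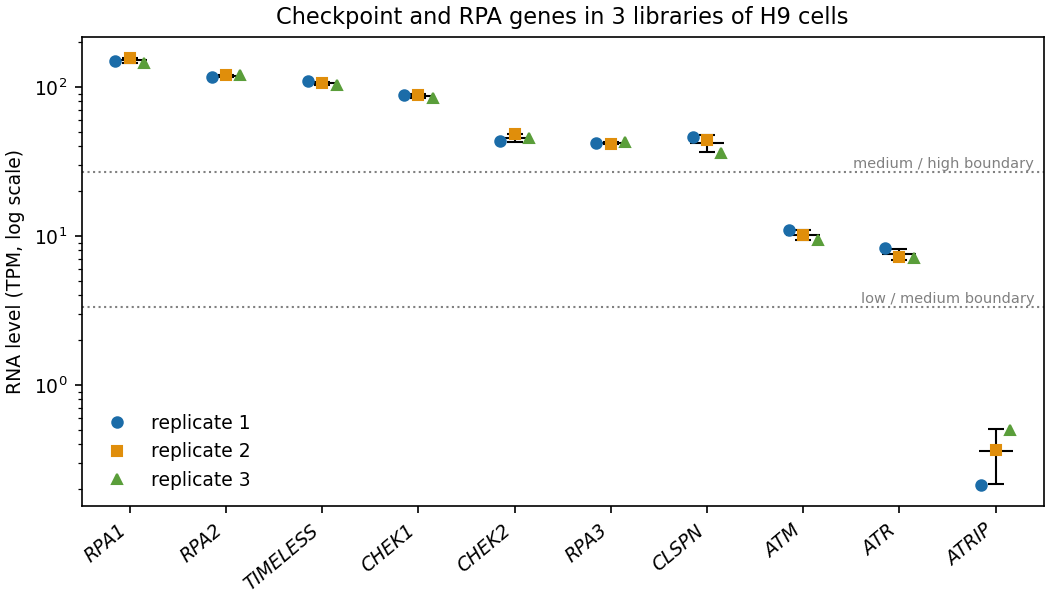
TPM of each gene (log axis) in replicates 1, 2 and 3 (symbols), with the mean as a horizontal mark and SD over the 3 replicates as bars, and dotted lines at the class boundaries of 3.35 and 27.0 TPM. RPA1, RPA2, TIMELESS, CHEK1, CHEK2, RPA3 and CLSPN lie above the upper line, ATM and ATR between the lines, and ATRIP below both.

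The mediators that travel with the fork were well expressed. TIMELESS (ENSG00000111602, chr12:56416363-56449426, minus strand), a subunit of the fork protection complex, was read at 108.8, 105.6 and 103.5 TPM (105.9 ± 2.67, n = 3). CLSPN (ENSG00000092853, chr1:35720218-35769978, minus strand), which holds CHK1 for phosphorylation by ATR, was read at 45.7, 44.2 and 36.0 TPM (42.0 ± 5.22). TIMELESS exceeded CLSPN in each library, by a log2 ratio of 1.25, 1.26 and 1.52 (mean 1.34 ± 0.16, exact sign-flip permutation p = 0.25), and by 1.25 without replicate 3. TIMELESS also exceeded TIPIN, its partner in the fork protection complex, which was read at 40.8 ± 2.48 TPM. The log2 ratio of TIMELESS to TIPIN was 1.34, 1.36 and 1.44 (mean 1.38 ± 0.055, exact sign-flip permutation p = 0.25), or 2.60-fold. Its mean was 0.90 with MANE Select lengths, 1.03 with exon bases shared with no other gene and 2.47 in CPM.

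CLSPN was the member that varied most among those with at least 100 reads in every replicate. Its coefficient of variation (CV, the SD as a percent of the mean) was 12.4%, where counting error alone would give 3.14%. The value of replicate 3 was low, at a log2 deviation of −0.32 from the mean of the other replicates, below the central 95% of all 9386 genes in that library (−0.27 to 0.41). A CV at least as large was found in 927 of these genes (9.88%). These genes were not matched to CLSPN for read number. Their median counting error was 4.44%, so 9.88% is not the share among genes read as deeply as CLSPN. Without replicate 3 the mean of CLSPN was 45.0 TPM. An antisense long noncoding RNA (ENSG00000232335) that shares 280 bases of exon with CLSPN had 67, 80 and 40 reads, and was also lowest in replicate 3 for the size of the library.

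The other members varied less. Over the 9 members with at least 100 reads in every replicate, the median CV was 3.50%, with a range of 1.78% (RPA2) to 12.4% (CLSPN), beside a median of 5.57% over all 9386 genes. The members had more reads than most of these genes, with a median counting error of 3.14% against 4.44%, so the CV medians are not directly comparable. ATR, ATM and CHEK2 had CVs of 8.04, 7.41 and 5.69%, above the median of all genes and above their counting errors of 4.36, 3.14 and 4.37%. The CVs of RPA2, RPA3 and CHEK1 (1.78, 1.83 and 2.52%) were below the counting error expected from their reads (4.06, 5.34 and 2.83%). In replicate 3 the other 8 deviated by −0.16 (ATM) to 0.045 (RPA3) on the log2 scale, within the central 95% of all genes, whose median was −0.031. ATRIP, with 15 reads, was not assessed.

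**Figure D3:**
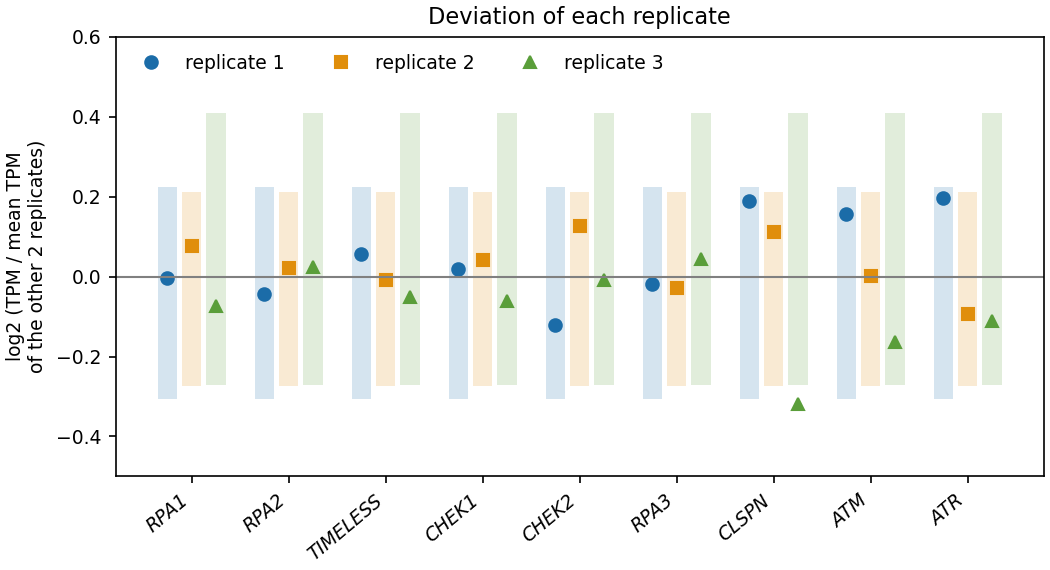
Log2 ratio of each replicate's TPM to the mean TPM of the other replicates, for the 9 genes with at least 100 reads in every replicate (symbols), over the central 95% of 9386 protein-coding genes in that replicate (shaded bars). CLSPN in replicate 3, at −0.32, is the point that lies outside its bar.

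The effector kinases differed from each other. CHEK1 (ENSG00000149554, chr11:125625163-125676255, plus strand), the kinase that ATR activates, was read at 87.6, 88.5 and 84.3 TPM (86.8 ± 2.18, n = 3). CHEK2 (ENSG00000183765, chr22:28687743-28742422, minus strand), the kinase that ATM activates, was read at 43.0, 48.2 and 45.3 TPM (45.5 ± 2.59). CHEK1 exceeded CHEK2 in every library, with a log2 ratio of 1.03, 0.88 and 0.90 (mean 0.93 ± 0.082, exact sign-flip permutation p = 0.25), or 1.91-fold. This difference rested on gene length. With the MANE Select transcripts as length, CHEK1 was at 71.0 ± 1.51 and CHEK2 at 66.9 ± 3.79 TPM and the log2 ratio was 0.088, about the size of the SD between replicates, because the 26 transcripts annotated for CHEK2 stretch its exon union to 2.44 times its MANE Select transcript. From gene counts, the excess of CHEK1 over CHEK2 thus depended on the length chosen.

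When reads were divided by gene length, the contrast between CHEK1 and the kinase above it was larger. The log2 ratio of CHEK1 to ATR was 3.41, 3.62 and 3.56 (mean 3.53 ± 0.11, exact sign-flip permutation p = 0.25), or 11.6-fold. With MANE Select lengths it was 2.23, so the excess of CHEK1 over ATR shrank and kept its direction. In CPM the log2 ratios of CHEK1 to ATR and of CHEK1 to CHEK2 were both 1.25.

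**Figure D4:**
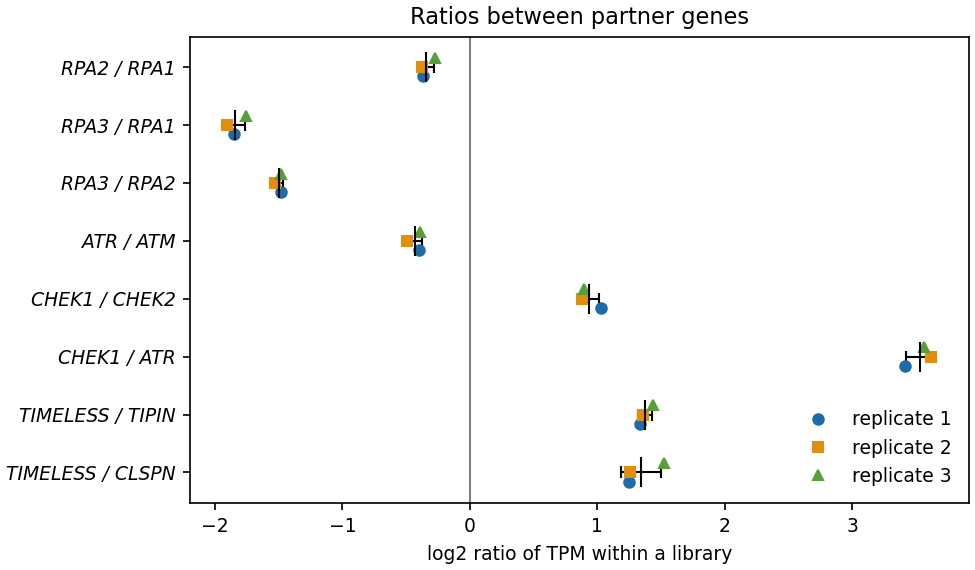
Log2 ratio of TPM between partner genes within each of the 3 libraries (symbols), with the mean and SD, for every pair except ATR and ATRIP, which had a mean of 4.47. All points of a pair lie on the same side of 0.

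In order of mean TPM the members ran RPA1, RPA2, TIMELESS, CHEK1, CHEK2, RPA3, CLSPN, ATM, ATR and ATRIP. With exon-union lengths, neighbours differed by more than their larger SD and kept their order in 3 of 3 libraries, except RPA3 and CLSPN. These differed by 0.063 TPM, against an SD of 5.22 for CLSPN, and were in this order in 1 of 3 libraries. CHEK2 and RPA3 were close as well, 3.45 TPM apart against an SD of 2.59. With MANE Select lengths, TIMELESS (72.5 ± 1.60 TPM) and CHEK1 (71.0 ± 1.51) differed by less than either SD. On that scale RPA3 (40.6 ± 0.91) exceeded CLSPN (28.5 ± 3.44) in every library.

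Genes were classified as in the methods of the study, with those below 0.01 mean TPM as nonexpressed and the others divided into 3 quantiles of low, medium and high expression, applied here to protein-coding genes with boundaries at 3.35 and 27.0 TPM. Of the 10 members, 7 were in the high class, which held 28.8% of all protein-coding genes. ATM and ATR were in the medium class and ATRIP in the low class. These calls depended on the class rule and the scale: with a threshold of 1 TPM for nonexpressed genes ATM and ATR were low and ATRIP nonexpressed, with all annotated genes classified ATM was high, and in CPM ATM and ATR were high and RPA3 medium. The median of the 10 members was 43.8 TPM, beside 7.10 TPM over all protein-coding genes and 11.7 TPM over the 16968 that reached 0.01 TPM. Without replicate 3 the median was 45.3 TPM, and 7 members were again in the high class. RPA1 stood at the 95th percentile of protein-coding genes, CHEK1 at the 90th, CLSPN at the 80th, ATM at the 55th and ATR at the 51st.

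Other genes of the pathway, chosen for their known roles, ranged from 0.29 to 251.4 mean TPM. Of 41 such genes, 32 were in the high class, beside 28.8% of all protein-coding genes, with 6 in the medium and 3 in the low class. Their median was 42.8 TPM, beside 43.8 TPM for the 10 members, and the difference was not tested. The same 28.8% is the share to set beside the count of each list below.

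The list of the checkpoint clamp RAD9-HUS1-RAD1, its loader and RHNO1, a protein that binds the clamp, had 9 of 11 genes in the high class, from RAD9A at 33.1 ± 1.54 TPM to RFC3 at 110.4 ± 6.94. The low ones were the paralogs RAD9B (1.11 ± 0.27 TPM) and HUS1B (1.57 ± 0.73 TPM). RAD9B is known for its expression in testis. Of the ATR activators, TOPBP1, which the clamp recruits, was at 62.7 ± 0.72 TPM, and ETAA1, which binds RPA directly, was in the medium class at 18.3 ± 1.34. With exon unions as lengths, both activators exceeded ATR itself, while with MANE Select lengths the ranges of ETAA1 and ATR overlapped, at a mean of 16.7 TPM for ETAA1 and 15.2 for ATR. The fork partners of TIMELESS, TIPIN and WDHD1 (97.9 ± 7.82 TPM), were in the high class.

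Around ATM, 6 of 8 break sensors and mediators were in the high class. The histone variant H2AX, which ATM phosphorylates at breaks, was the highest at 251.4 ± 34.4 TPM, with 290.4 TPM in replicate 3 against 238.9 and 225.0 in the others. NBN, which brings ATM to breaks, and the ubiquitin ligase RNF8 were in the medium class, at 17.6 ± 0.97 and 23.2 ± 1.24 TPM. The exon union of NBN is 4.20 times its MANE Select transcript, and with that length NBN was in the high class at 44.5 ± 2.31 TPM, while MRE11 and RAD50 moved to the medium class at 21.2 ± 0.47 and 25.2 ± 1.16. All 5 effector targets, kinases and phosphatases that act on the cyclin-dependent kinases, were in the high class, from CDC25C at 33.3 ± 0.60 to CDC25A, which CHK1 marks for degradation, at 118.9 ± 10.3 TPM. The 5 ranged below and above the level of CHEK1.

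With exon unions as lengths, ATM and ATR were the lowest of the phosphatidylinositol 3-kinase-related kinases. The other members of that family and the chaperones that fold them were all in the high class (7 of 7), from SMG1 at 35.0 ± 3.22 to PRKDC, the kinase of DSB end joining, at 126.7 ± 10.3 TPM. The gap between PRKDC and ATM depended in part on length, with 126.7 and 10.1 TPM from exon unions and 165.2 and 18.5 TPM from MANE Select transcripts.

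Of 6 genes that work with RPA, 2 were in the high class, beside 28.8% of all protein-coding genes. They were RFWD3, the ubiquitin ligase that acts on RPA, at 116.4 ± 5.33 TPM and RPAIN, which carries RPA into the nucleus, at 40.2 ± 2.06. The exon union of RPAIN is 7.47 times its MANE Select transcript, and that length gave 181.4 ± 8.71 TPM. SMARCAL1, a fork remodeller that RPA recruits, was in the medium class at 8.45 ± 0.46 TPM (19.2 ± 1.00, also medium, with the MANE Select length), as were RADX at 9.49 ± 1.17 and the primase-polymerase PRIMPOL at 21.2 ± 1.12. RPA4, a paralog of RPA2, had 1, 3 and 0 reads and was in the low class at 0.29 ± 0.32 TPM. A count of 0 in replicate 3 allows up to 0.87 TPM, so RPA2 was the form of this subunit that was read at an appreciable level.

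For scale, the 6 genes of the replicative helicase, MCM2 to MCM7, ranged from 189.6 (MCM5) to 538.8 TPM (MCM3), with a median of 275.4. Each stood above RPA1, the highest of the members.

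**Figure D5:**
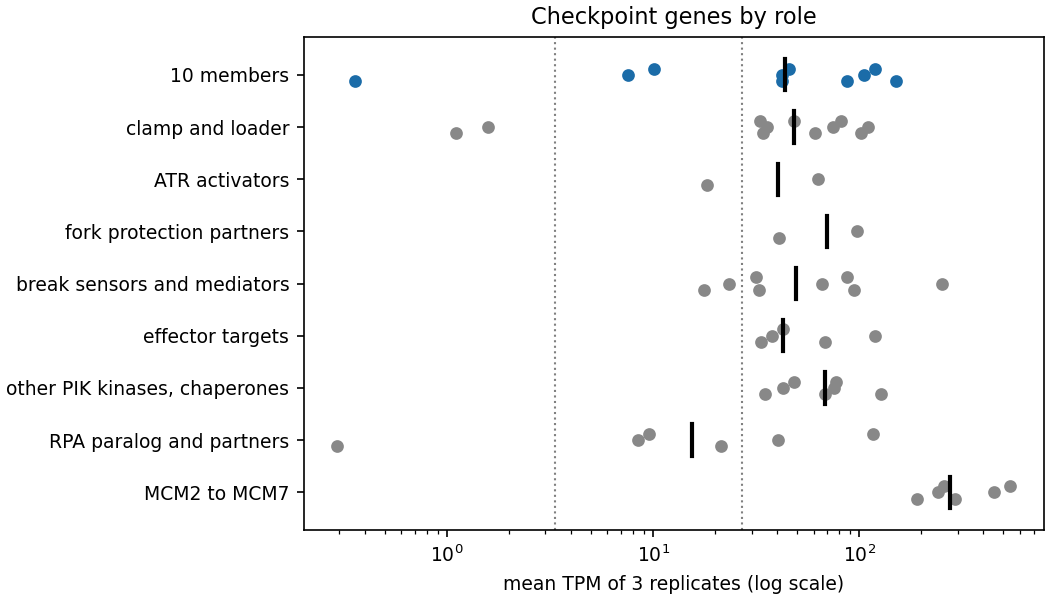
Mean TPM over 3 replicates (log axis) of each gene, by role, with the median of each list as a vertical bar and dotted lines at the class boundaries. The 10 members (top) span 0.36 to 150.5 TPM, and the MCM genes (bottom) lie above all of them.

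Genes that share exon sequence were considered for each member, because reads of overlapping genes, and of antisense genes where counting ignores strand, can go to either. As a percent of exon bases, the shared part was smaller in the other members than in ATRIP, though ATR shares more bases. CHEK1 shares 53 bases with STT3A on the same strand, a gene at 96.5 ± 4.21 TPM, and 751 bases (13.4% of its exons) with an antisense long noncoding RNA that was not among the counted genes. CHEK2 shares 293 bases with HSCB (87, 143 and 78 reads), RPA1 175 bases with SMYD4 (332, 401 and 286 reads), RPA3 118 bases with UMAD1 (98, 125 and 81 reads) and ATM 124 bases with C11orf65 (17, 19 and 23 reads), each on the opposite strand. ATR shares 2048 bases with the antisense pseudogene EIF2AK1P1, which had 1, 6 and 4 reads, and 497 bases with a long noncoding RNA on the same strand (ENSG00000244327), which had 1, 0 and 1 reads. Further antisense overlaps, of 102 bases between ATM and a Y RNA gene (ENSG00000206967) and of 70 bases between RPA3 and a long noncoding RNA (ENSG00000283549), were with genes at 0 reads in all 3 libraries. TIMELESS and RPA2 share none. With shared bases removed from the lengths, the classes of the 10 members were as before. Outside the Y chromosome, the 11 counted pseudogenes named after CHEK2, RPA2 or RPA3 held 3 reads in all, 1 in CHEK2P2 and 2 in CHEK2P6. Whether reads that match both a member and a copy were discarded was not tested.

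The start sites of 3 members face another protein-coding gene within 1000 bases, in the arrangement called divergent. NPAT, a regulator of histone genes, starts 429 bases from ATM and was read at 31.4 ± 2.18 TPM. HSCB starts 219 bases from CHEK2, and was at 26.6 ± 5.18 TPM, and SMYD4 starts 103 bases from RPA1, and was at 19.1 ± 0.38 TPM. In TPM, CHEK2 and RPA1 exceeded their neighbours and ATM was below NPAT. With MANE Select lengths ATM was again below NPAT in every library, at 19.9, 18.5 and 17.2 against 24.3, 24.1 and 21.6 TPM. Of all protein-coding genes 9.45% have such a neighbour, and 14.7% of the high class do, and nothing is read from 3 of 10.

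Promoter sequences from RefSeq (GRCh38.p14), 250 bases before to 50 bases after the start site, matched the start of the MANE Select transcript within 500 bases for 7 members: ATM, ATR, ATRIP, CHEK2, CLSPN, TIMELESS and RPA1. On either strand, the letters CCAAT were found in 6 of these 7, all but ATR, and in 36.9% of 14745 protein-coding promoters (40.4% of those in the high class). The GC box GGGCGG was also found in 6 of 7, all but ATM, and in 62.7% of promoters (77.1% of those in the high class). An E2F-like motif (TTTCCCGC, TTTCGCGC, TTTGCCGC or TTTGGCGC) was found in CLSPN and in 4.63% of promoters (6.91% of the high class). The letters TTTGAA, the core of the CHR element of cell cycle genes, were found in ATM and in 11.4% of promoters (8.92% of the high class), and TATAAA in no member and in 9.33% (4.86% of the high class). Both CCAAT and the GC box were found in ATRIP and in RPA1, the lowest and the highest member in TPM. A match is a description of letters, binding was not measured, and a relation between motifs and levels was not tested. The stretches below show, for the 6 genes, the CCAAT match that lies closest before the start site, in capitals, where ATTGG is the same motif on the other strand. They are read 5′ to 3′ along the gene.
ATM: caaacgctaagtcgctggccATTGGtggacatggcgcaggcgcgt
ATRIP: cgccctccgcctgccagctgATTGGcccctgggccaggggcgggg
CHEK2: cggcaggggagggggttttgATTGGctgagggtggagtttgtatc
CLSPN: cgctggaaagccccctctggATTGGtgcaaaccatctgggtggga
TIMELESS: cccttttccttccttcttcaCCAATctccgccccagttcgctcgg
RPA1: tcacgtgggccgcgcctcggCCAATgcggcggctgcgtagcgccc
These lie at chr11:108222859-108222903 (plus strand), chr3:48446691-48446735 (plus), chr22:28741836-28741880 (minus), chr1:35770000-35770044 (minus), chr12:56449455-56449499 (minus) and chr17:1829906-1829950 (plus). The motif begins 188, 26, 40, 46, 53 and 79 bases before the start site. The E2F-like match of CLSPN, which begins 5 bases before its start site and overlaps a GC box, is shown in capitals at chr1:35769966-35769993 (minus strand).
CLSPN: ctctggctggGCGGGAAAgcaagaacag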

How the data were processed

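RNA-seq was performed on 3 replicates of H9 cells. The values deposited by the authors are raw counts of reads per gene, 1 library per file, not normalized. According to the submitters' processing notes, reads were trimmed with Trim Galore (version 0.4.4) and aligned to GRCh38 with TopHat2 (version 2.1.1), and Cufflinks (version 2.2.1) was used for expression values of the study, which were not used here. No source used here names the counting tool, the annotation it counted on or whether it took strand into account.

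Identifiers were joined to GENCODE release 44, on the same build, and 56948 of 58051 matched. The other 1103 held 0.27 to 0.29% of the counts. TPM was computed from the counts and the union of annotated exons over the matched genes. Means and SDs are over the 3 replicates. With 1 condition, no test between groups was made, and log2 ratios within libraries were tested by exact two-sided sign-flip permutation. Alternatives were other gene lengths, CPM, scaling by TMM factors of edgeR (version 4.0.16) or size factors of DESeq2 (version 1.42.0), other class rules and leaving out each replicate. The level and class steps were tested on simulated counts, and the sign-flip test on set values with a known answer. Scripts ran in Python 3.11.15 (with scipy 1.17.1, pandas 2.3.3, numpy 2.4.6 and matplotlib 3.10.9) and in R 4.3.3.

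All 10 members were named with every replicate. From each pathway list, at least the highest and lowest gene and every gene below the high class were named. So were the genes overlapping a member, pseudogenes of members with reads outside the Y chromosome and the cell type markers. Genes that neighbour a member (NPAT, SHISA5, TMA7, CCDC51, PLXNB1, FBXW12 and the noncoding RNA beside ATRIP) were added after values were seen. The members and lists were chosen with earlier results of these data known. ATRIP, TREX1, RPA4, HUS1B and RAD9B had between 0 and 40 reads over libraries of 8655155 to 12024802, which limits the precision of their levels.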

Additional observations from a re-analysis of the deposited data

How the results depend on the processing

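Alternative settings reversed the sign of none of the 9 log2 ratios, and under all settings run the counts of members (7 or 8) and of pathway genes (24 to 37) in the high class stayed within 1.5 times the values reported. The genes behind the member count changed in CPM, where ATM and ATR entered the high class and RPA3 left it, and with all annotated genes classified, where ATM entered it. The median level of the 10 members (43.8 TPM) was 55.4 with the longest transcript as gene length, 53.8 with the MANE Select transcript, 45.6 without mitochondrial genes and 80.1 in CPM, a scale that is not per length. Leaving out a replicate gave 43.2 to 45.3. With the longest transcript, the log2 ratios were −0.20 for RPA2 to RPA1, −1.34 for RPA3 to RPA1, −1.14 for RPA3 to RPA2, 5.97 for ATR to ATRIP, −0.27 for ATR to ATM, 0.56 for CHEK1 to CHEK2, 2.23 for CHEK1 to ATR and 0.90 for TIMELESS to TIPIN. With MANE Select transcripts they were, in the same order, −0.20, −1.34, −1.14, 5.97, −0.29, 0.088, 2.23 and 0.90. With exon bases shared with no other gene, RPA3 to RPA2 was −1.44, ATR to ATM −0.295, CHEK1 to CHEK2 1.04 and TIMELESS to TIPIN 1.03. In CPM, the log2 ratios were −1.81 for RPA2 to RPA1, −2.60 for RPA3 to RPA1, −0.79 for RPA3 to RPA2, 6.80 for ATR to ATRIP, −0.95 for ATR to ATM, 1.25 for CHEK1 to CHEK2, 1.25 for CHEK1 to ATR, 2.47 for TIMELESS to TIPIN and 0.63 for TIMELESS to CLSPN. These shifts follow from the lengths used. Leaving out a replicate moved no ratio by more than its SD. Of the 10 single levels, 8 moved by more than their SD with the longest transcript (4 up, 4 down), 9 with MANE Select (3 up, 6 down), 3 with unshared bases (1 up, 2 down), 9 in CPM (7 up, 2 down) and 5, all up, without mitochondrial genes, but none by TMM or size factor scaling, by the median over replicates or without any 1 replicate. The median CV of the members was 3.50% in TPM, 3.50% with a minimum of 20 reads and 3.06% in CPM. MANE Select lengths for NPAT, HSCB and SMYD4 were an alternative chosen after seeing the data, and gave 23.3, 21.1 and 17.8 TPM in place of 31.4, 26.6 and 19.1. Low counts limit ATRIP, and no setting changed which reads were counted for it. No paired analysis was possible because there is a single group, so samples could not be paired across groups, and the ratios above pair genes within a library.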
